A study of Mus musculus with 8 samples.

Results

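The 9 genes described here make, carry, sense and destroy retinoic acid, the active form of vitamin A. They were taken by name from a table of read counts for 41128 genes: Stra6, Aldh1a2, Crabp1, Crabp2, Rara, Rarb, Rarg, Rxra and Cyp26a1, each with 1 row. Of the 9, 5 had enough reads to be tested (Rara, Rarg, Rxra, Cyp26a1 and Crabp1) and 4 were at the edge of detection (Aldh1a2, Rarb, Crabp2 and Stra6).

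The 8 libraries were made from haemogenic endothelium, the vessel lining from which blood cells bud, obtained by differentiating mouse C57BL/6 embryonic stem cells. One line was Hdac1 lox/lox and the other Hdac2 lox/lox, so that each carries lox sites at the gene for a class I histone deacetylase, HDAC1 or HDAC2. Each line was given EtOH (ethanol, the usual solvent) or 4OHT (4-hydroxytamoxifen, a ligand that switches on tamoxifen-dependent Cre recombinase), with 2 libraries in each of the 4 groups. The series is described as a deletion of either gene. The labels name no Cre transgene, clone number or dose, and do not say whether the 2 libraries of a group came from separate cultures, so p-values measure only the spread between these libraries. Cells given 4OHT but lacking lox sites were not analysed here.

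Retinol reaches cells on a carrier protein, can be taken up through the receptor STRA6, and is oxidised first to retinaldehyde and then, by retinaldehyde dehydrogenases such as ALDH1A2, to retinoic acid. In the cell, CRABP1 and CRABP2 bind retinoic acid, CRABP2 passing it to the nucleus, and CYP26A1 hydroxylates it for removal. Retinoic acid acts through the receptors RARα, RARβ and RARγ, which bind DNA as pairs with an RXR, hold corepressors with histone deacetylases when no ligand is bound, and recruit coactivators when it is. Retinoic acid made by ALDH1A2 is known to be needed for blood-forming activity of haemogenic endothelium in the mouse embryo.

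Libraries held 10215792 to 19552380 counts, and values are given as CPM (counts scaled to a fixed library size) after scaling, where 3 counts corresponded to 0.150 to 0.287 CPM. Hdac1 stood at 5.78 and 5.60 CPM with EtOH and 6.99 and 7.12 CPM with 4OHT in the Hdac1 line, and Hdac2 at 164.8 and 150.5 CPM against 149.0 and 149.4 CPM in the Hdac2 line. Gene-level counts include exons outside a floxed segment, so these values do not check the deletions, and the groups are named as labelled. All 14 haemogenic endothelium markers were detected, with Cdh5 (VE-cadherin) at 745 to 3026 CPM. Replicates were least alike in the Hdac1 line: 11.5% of 14179 tested genes differed 2-fold or more between its EtOH libraries and 7.9% between its 4OHT libraries, against 5.97% and 3.74% in the Hdac2 line. In the Hdac2 line, EtOH replicate 2 also stood apart, with 4.58 CPM of the Y-linked gene Ddx3y against 0.324 to 0.889 CPM in the other 3 libraries. All 4 libraries of the Hdac1 line had 25.8 to 45.7 CPM of Ddx3y, so the lines also differ in a Y-linked gene, and its bearing on comparisons between the lines was not tested. Without any 1 library of the Hdac2 line, the number of genes called in that line with 4OHT went from 5113 to between 0 and 826.

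Of the 9 genes, Rara, Rarg, Rxra and Cyp26a1 had the highest levels. Rxra was called higher with 4OHT in the Hdac2 line, by 0.53 ± 0.16 (SE) on the log2 scale, with an adjusted p of 0.0393 by edgeR. In that comparison 36.1% of all tested genes were called. With EtOH, Rxra was also called higher in the Hdac2 line than in the Hdac1 line. Both calls were lost in several alternative fits. With 4OHT in the Hdac2 line, Rara differed by the same amount as Rxra, just outside the threshold (adjusted p = 0.0555 by edgeR). Rarg had a log2 fold change of 0.02 in that comparison. No member was called with 4OHT in the Hdac1 line, where 0% of all tested genes were. Cyp26a1 differed 10.1-fold between the EtOH replicates of the Hdac1 line, as much as only 8 of the 14179 tested genes, itself included. Differential expression was tested with edgeR's quasi-likelihood test on all 8 libraries, with Benjamini-Hochberg adjustment over all 14179 tested genes and a threshold of 0.05.

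**Figure D1:**
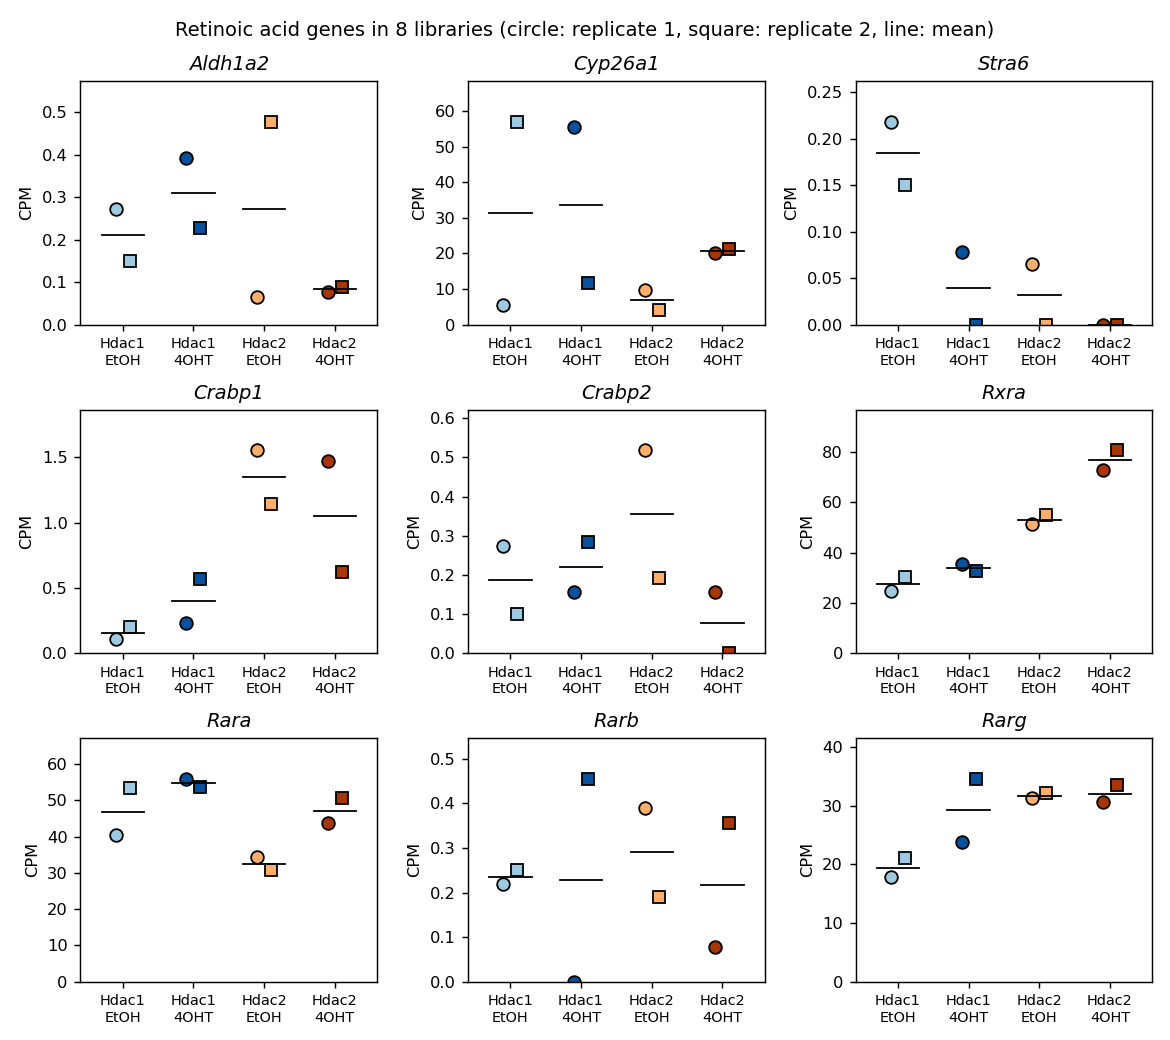
CPM of the 9 genes (vertical axis, each panel from 0 on its own scale) in the 4 groups (horizontal axis), with 1 point per library and a line at the group mean. Rxra steps up from 24.8 CPM in the lowest library of the Hdac1 line to 80.7 CPM with 4OHT in the Hdac2 line, Cyp26a1 splits the replicates of the Hdac1 line, and Aldh1a2, Rarb, Crabp2 and Stra6 stay under 0.6 CPM.

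The uptake receptor gene Stra6 (chromosome 9, 58063788 to 58153996, as annotated on GRCm38, the assembly of mm10, like the other 8 as a protein-coding gene) was almost silent. It had 4 and 3 counts in the EtOH libraries and 1 and 0 in the 4OHT libraries of the Hdac1 line, and 1 count in all 4 libraries of the Hdac2 line. The 8 counts against 1 give a ratio of 5.83 between the lines after scaling, with an exact 95% interval of 0.782 to 259 that covers counting error only. A difference in Stra6 was therefore not detectable at this depth.

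Aldh1a2 (chromosome 9, 71215789 to 71296243), which encodes the main retinoic acid-synthesising enzyme of the early embryo, had 25 counts in all. The Hdac1 line held 5 and 3 counts with EtOH and 5 and 4 with 4OHT, and the Hdac2 line 1 and 5 with EtOH and 1 and 1 with 4OHT. Pooled over the libraries of each line this came to 0.248 CPM (exact Poisson 95% interval 0.144 to 0.397) in the Hdac1 line and 0.160 CPM (0.0690 to 0.315) in the Hdac2 line. The intervals overlap, and Aldh1a2 was too low for the test across genes. Its relatives were also low: Aldh1a3, another retinaldehyde dehydrogenase, ranged from 0.286 to 1.88 CPM, and Aldh1a1 from 0.0955 to 3.61 CPM.

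The genes of both cellular retinoic acid-binding proteins were low as well, and Crabp1 alone of them had enough reads to be tested. Crabp2 (chromosome 3, 87948666 to 87953376) had 26 counts, between 0 and 8 per library, with pooled levels of 0.204 CPM (0.112 to 0.342) in the Hdac1 line and 0.240 CPM (0.124 to 0.419) in the Hdac2 line. Crabp1 (chromosome 9, 54764748 to 54773110) had 2 and 4 counts with EtOH and 3 and 10 with 4OHT in the Hdac1 line, against 24 and 12 with EtOH and 19 and 7 with 4OHT in the Hdac2 line. In CPM these are 0.109 and 0.200, then 0.236 and 0.569, against 1.56 and 1.15, then 1.47 and 0.622. All 4 libraries of the Hdac2 line lay above all 4 of the Hdac1 line, a separation that was not counted over all genes. The closest values, 0.622 CPM in the Hdac2 line and 0.569 CPM in the Hdac1 line, came from 7 and 10 counts.

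With EtOH, 2 of the 5 tested members were called between the lines, both higher in the Hdac2 line, where 9.33% of all tested genes were called, 2.91% higher and 6.42% lower. Crabp1 was one of them, with a fitted log2 fold change of 3.06 ± 0.69 (SE) and an adjusted p of 0.0394 by edgeR. The 36 counts against 6 give a ratio of 8.88 with an exact 95% interval of 3.71 to 25.8 for counting error only. The call was lost without either EtOH library of either line or without either 4OHT library of the Hdac2 line, with adjusted p of 0.0566 to 0.241 there, and in a fit of the EtOH libraries alone (0.0651). Crabp1 is a gene of hindbrain, neural crest and mesenchyme. Of the neural markers, Sox2 had 2.33 and 3.06 CPM with EtOH in the Hdac2 line, against 0.382 and 0.200 CPM in the Hdac1 line. Sox1, Pax6, Neurog2, Neurod1, Elavl3 and Dcx (6 of 11 neural markers) were under 1 CPM in every library, as were 5 of 7 neural crest markers, among them Sox10, Foxd3 and Tfap2b. The neural markers summed to 124 to 201 CPM in those libraries of the Hdac2 line and 259 to 539 CPM in those of the Hdac1 line, and the neural crest markers to 514 to 573 and 307 to 467 CPM. Nes, with 118 and 85.1 against 214 and 492 CPM, made up most of the neural sums, and Ets1, also an endothelial gene, with 513.1 and 572.5 against 306 and 465 CPM, nearly all of the crest sums. Their part in the result was not tested, and in bulk RNA a change in the share of a cell type and a change in RNA per cell cannot be told apart.

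Rxra (chromosome 2, 27676440 to 27762957) encodes RXRα, the partner of all 3 RARs and of several other nuclear receptors. Its CPM was 24.8 and 30.5 with EtOH and 35.5 and 32.6 with 4OHT in the Hdac1 line, and 51.3 and 54.9 with EtOH and 72.9 and 80.7 with 4OHT in the Hdac2 line. Every library of the Hdac2 line was above every library of the Hdac1 line, and within each line both 4OHT libraries were above both EtOH libraries. Separation of 2 libraries from 2 arises often by chance. How many of all genes showed that separation, or the separation between the lines, was not counted. With 4OHT in the Hdac2 line, Rxra was the only member called of the 5 tested, while 36.1% of all tested genes were called in that comparison, 18.9% higher and 17.2% lower. Its log2 fold change was 0.53 ± 0.16 (SE, adjusted p = 0.0393 by edgeR). In the Hdac1 line the same comparison gave 0.30 ± 0.17 with an adjusted p of 0.791 by edgeR. The difference between the lines in the 4OHT effect was 0.23, with a 95% interval of -0.31 to 0.77 and an adjusted p of 0.522 by edgeR, so the effects were not shown to differ. None of the 5 tested members was called for that difference, where 0.0282% of all tested genes were.

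The call for Rxra in the Hdac2 line lay close to the threshold. It was lost without either 4OHT library of the Hdac1 line (adjusted p of 0.0613 without replicate 1 and 0.0566 without replicate 2) and without any library of the Hdac2 line (0.105 to 0.196), with log2 fold changes of 0.46 to 0.61 in these fits. It was also lost with upper quartile scaling, where the fold change was 0.40 and the median of all genes moved from -0.02 to -0.15, with no scaling, and with no filter on low counts. With EtOH, Rxra was higher in the Hdac2 line by 0.94 ± 0.17 (SE, adjusted p = 0.0249 by edgeR). That call was lost in a fit of the EtOH libraries alone (0.0760), without either EtOH library of the Hdac2 line (0.197 without replicate 1 and 0.108 without replicate 2) and without either of its 4OHT libraries (0.0619 and 0.0620).

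By the profile over the 8 libraries, the genes closest to Rxra were Hk1 (hexokinase 1), Ank (a pyrophosphate transporter) and Kazn (kazrin). The measure was the root mean square difference in log2 CPM after centring each gene on its own mean. It was 0.11, 0.14 and 0.15 for these genes, against a median of 0.71 over all tested genes. Hk1 was at 106.1 and 106.3 CPM with EtOH in the Hdac1 line and at 275.4 and 284.4 CPM with 4OHT in the Hdac2 line.

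Rara (chromosome 11, 98927818 to 98974942) encodes RARα, the most widely expressed RAR. It was at 40.3 and 53.4 CPM with EtOH and 56.0 and 53.8 CPM with 4OHT in the Hdac1 line, and at 34.3 and 30.9 CPM with EtOH and 43.6 and 50.7 CPM with 4OHT in the Hdac2 line. The EtOH libraries of the Hdac2 line were the lowest of the 8. In neither line did 4OHT and EtOH overlap, a separation that was not counted over all genes. Its log2 fold change with 4OHT in the Hdac2 line was 0.53 ± 0.19 (SE), as large as that of Rxra, with an adjusted p of 0.0555 by edgeR, just outside the threshold. DESeq2 gave 0.0437, a fit of the Hdac2 line alone 0.0193, and leaving out 1 EtOH library of the Hdac1 line 0.0238 (replicate 1) or 0.0265 (replicate 2). Of 17 alternatives 12 did not call it, with adjusted p of 0.111 to 0.256 without any 1 library of the Hdac2 line and 0.104 with upper quartile scaling. Between the EtOH libraries Rara differed by -0.52 ± 0.18 (adjusted p = 0.0985 by edgeR), the opposite sign to Rxra.

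Rarg (chromosome 15, 102234938 to 102257517) encodes RARγ, a receptor prominent in early mesoderm and skin. Its CPM was 17.8 and 21.01 with EtOH and 23.9 and 34.6 with 4OHT in the Hdac1 line, and 31.4 and 32.1 with EtOH and 30.7 and 33.5 with 4OHT in the Hdac2 line. The log2 fold change with 4OHT in the Hdac2 line was 0.02, with a 95% interval of -0.47 to 0.50. For the Hdac1 line it was 0.59 ± 0.21 (SE, adjusted p = 0.731 by edgeR). By the unadjusted p of edgeR, 0.0232, Rarg was the 1 tested member below 0.05 in that line. In that comparison edgeR called 0% of all tested genes: 947 had an unadjusted p under 0.05, DESeq2 called 32 and limma-voom 0. The difference between the lines in the 4OHT effect on Rarg was -0.58 ± 0.30 (adjusted p = 0.234 by edgeR). With EtOH, Rarg was 0.71 ± 0.21 above the Hdac1 line in the Hdac2 line without passing the test (adjusted p = 0.0677 by edgeR).

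Rarb (chromosome 14, 16430842 to 16575472) encodes RARβ, whose gene is a classical direct target of retinoic acid. It had 4 and 5 counts with EtOH and 0 and 8 with 4OHT in the Hdac1 line, and 6 and 2 with EtOH and 1 and 4 with 4OHT in the Hdac2 line. Pooled levels were 0.248 CPM (0.144 to 0.397) and 0.260 CPM (0.138 to 0.444), with no difference detectable at this depth.

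**Figure D2:**
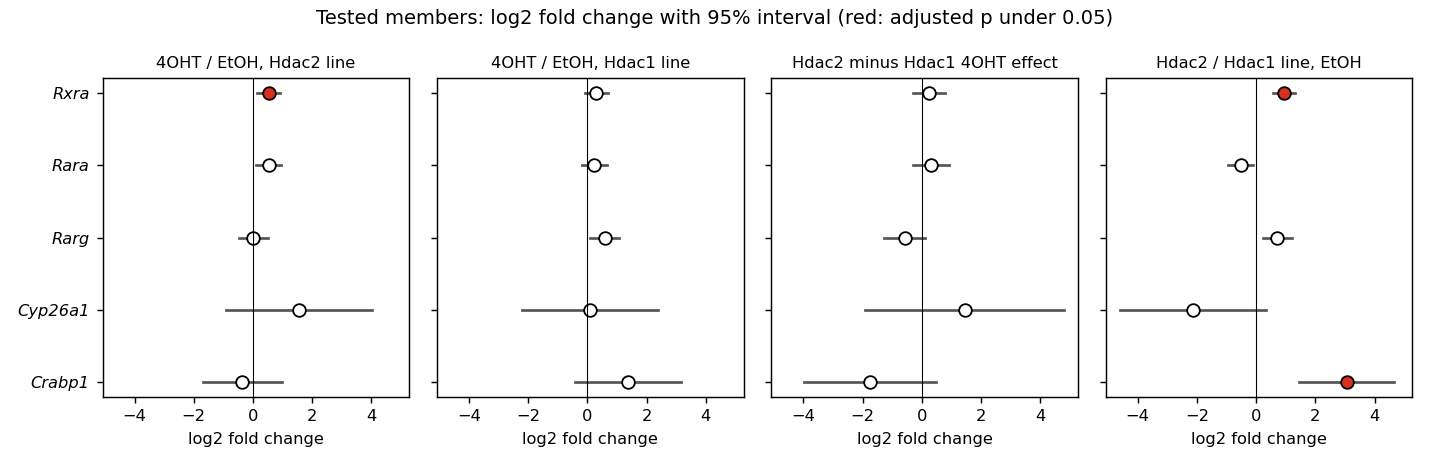
Log2 fold change (horizontal axis) of the 5 tested members in the 4 comparisons (panels), as points with 95% intervals, filled red where the adjusted p was under 0.05. Rxra is called in the Hdac2 line with 4OHT and between the EtOH libraries, Crabp1 between the EtOH libraries, and the intervals of Cyp26a1 are the widest in every panel.

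Compared per kilobase of exon, the receptors fell in a different order in each line. The mean CPM per kilobase with EtOH in the Hdac1 line was 10.7 for Rara, 5.06 for Rxra and 4.56 for Rarg. For the Hdac2 line it was 7.46 for Rara, 9.72 for Rxra and 7.45 for Rarg. With 4OHT it was 12.6, 6.23 and 6.86 in the Hdac1 line, and 10.8, 14.1 and 7.53 in the Hdac2 line. Of these 3, Rara thus led in the Hdac1 line and Rxra in the Hdac2 line. Rara and Rarg with EtOH in the Hdac2 line, and Rxra and Rarg in the Hdac1 line, were too close to order. Rxrb, encoding RXRβ and not a member, had 10.8 with EtOH and 10.01 with 4OHT in the Hdac1 line. For the Hdac2 line it had 14.4 and 8.58, so with EtOH it was above all 3 there. On the same scale the means of Cyp26a1 were 15.8 with EtOH and 16.9 with 4OHT in the Hdac1 line, and 3.52 and 10.4 in the Hdac2 line. Crabp1 had 0.193, 0.502, 1.68 and 1.31 in that order. Rarb was at 0.0411 to 0.0551 CPM per kilobase in all 4 groups, Aldh1a2 at 0.0368 to 0.137, Crabp2 at 0.0587 to 0.268 and Stra6 at up to 0.0316.

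Cyp26a1 (chromosome 19, 37697808 to 37701528) encodes the enzyme that clears retinoic acid and is itself induced by it. Like Rarb, it is a classical target with a retinoic acid response element near its start, a pair of short hexamer sites in the same direction with 5 bases between them. The promoters of both are shown because a script found such a repeat in these 2 of the 16 RefSeq promoters of 8 members. The sequences are the 120 bases before the start, from RefSeq on GRCm38.p6, read along the gene, with the repeat in capitals. Rarb is at chr14:16575477-16575596 on the minus strand and Cyp26a1 at chr19:37697688-37697807 on the plus strand.
Rarb: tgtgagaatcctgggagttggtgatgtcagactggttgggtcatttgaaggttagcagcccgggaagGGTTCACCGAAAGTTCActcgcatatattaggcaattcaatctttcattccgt
Cyp26a1: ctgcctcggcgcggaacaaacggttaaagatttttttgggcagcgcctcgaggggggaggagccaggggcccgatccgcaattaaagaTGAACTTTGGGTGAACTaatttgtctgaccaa

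The hexamer searched for was the consensus AGGTCA and also each of 3 variants known from such elements, of which the first was AGTTCA, the next of the variants was written GGGTCA and the last of them was written GGTTCA. Both strands were read, from 250 bases before to 50 bases after each start. The repeat lies 53 to 37 bases before the start of Rarb, on the strand of the gene, and 32 to 16 bases before that of Cyp26a1, on the opposite strand. Of all 32851 RefSeq promoters of this length, 32 (0.0974%) held a match. With 2 bases between the hexamers 88 (0.268%) did, none of them among the members. A match is a description of the letters, and these data measure no binding. With the repeat in both promoters, the genes were far apart in level: Rarb had at most 0.456 CPM in any library and Cyp26a1 at least 4.11 CPM.

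In the Hdac1 line, Cyp26a1 was at 5.62 and 57.0 CPM in the EtOH libraries and at 55.5 and 11.6 CPM in the 4OHT libraries. EtOH replicate 2 and 4OHT replicate 1 were thus high, and the groups overlapped throughout. The genes that differed at least as much between replicates, Cyp26a1 included, were 0.0564% of those tested for the EtOH libraries and 0.635% for the 4OHT libraries, where it differed 4.78-fold. The log2 fold change with 4OHT was 0.09, with a 95% interval of -2.20 to 2.39, and it ranged from -1.43 without 4OHT replicate 1 to 2.56 without EtOH replicate 2.

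The Hdac2 line gave 9.85 and 4.11 CPM with EtOH and 20.2 and 21.2 CPM with 4OHT. The log2 fold change was 1.54 ± 1.06 (SE, adjusted p = 0.273 by edgeR), where the error includes the spread of the Hdac1 line. A fit of the Hdac2 line alone gave 1.53 with an adjusted p of 0.0122, and called 53.4% of all genes tested. The estimate was 2.33 without EtOH replicate 1 and 1.07 without EtOH replicate 2. Between the EtOH libraries the log2 fold change was -2.14 ± 1.06 (adjusted p = 0.201 by edgeR). It became -2.999 and was called (0.0314) without EtOH replicate 1 of the Hdac1 line, and 0.34 (0.856) without EtOH replicate 2. The direction between the lines therefore depended on which EtOH library of the Hdac1 line was kept.

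Sox17 and Gata1 are set beside Cyp26a1 as single marker genes, named after their values were seen. Sox17, an endothelial and endodermal transcription factor gene, was at 32.4 and 88.4 CPM with EtOH and 90.7 and 34.05 CPM with 4OHT in the Hdac1 line, and at 47.6 and 52.8 CPM and then 211 and 226 CPM in the Hdac2 line. Gata1, an erythroid transcription factor gene, ran the other way, at 29.5, 8.75, 5.10 and 18.5 CPM in the Hdac1 line and at 59.1 and 69.9 CPM and then 6.83 and 5.95 CPM in the Hdac2 line. Other markers were split in the Hdac1 line. Cdh5, a haemogenic endothelium marker, ran like Sox17 (1296 and 2151, then 2471 and 1664 CPM). Itga2b, from the same list, ran like Gata1 (168.5 and 109.0, then 99.0 and 169.1 CPM). Among the erythroid markers, Klf1 ran like Gata1 (13.5 and 3.40, then 1.18 and 8.66 CPM). Alas2 differed little (14.5 and 13.15, then 10.9 and 11.7 CPM). The 9 erythroid markers summed to 1679 to 1777 CPM with EtOH and 237 to 382 CPM with 4OHT in the Hdac2 line, and 6 of them fell. The 14 haemogenic endothelium markers summed to 3156 to 3482 CPM and 6058 to 7897 CPM, with 6 higher and 3 lower. With 4OHT in the Hdac2 line, 18.9% of all tested genes were called higher and 17.2% lower. In the Hdac1 line the erythroid sums were 297 to 952 CPM with EtOH and 168 to 446 CPM with 4OHT, and the endothelial sums 4374 to 6030 CPM and 4672 to 6159 CPM. Macrophage markers summed to 2.77 to 10.1 CPM with EtOH and 37.6 to 45.3 CPM with 4OHT in the Hdac2 line, and smooth muscle and mesenchyme markers to 1529 to 2184 CPM and 4367 to 6598 CPM. The part of these cell types in the results on retinoid genes was not tested. The 12 visceral endoderm markers summed to 57.3 to 58.7 CPM with EtOH and 225 to 238 CPM with 4OHT in the Hdac2 line, most of it from Sox17. Of the 5 tested, 3 rose and 0 fell, where 18.9% of all tested genes rose and 17.2% fell. Foxa2 was at 0.389 and 0.382 CPM and then 4.97 and 3.02 CPM, and Cubn at 2.53 and 1.62 CPM and then 4.97 and 4.98 CPM. Of these markers, Ttr, Apoa1, Apob, Apoa4, Apoc2, Hnf4a and Amn (7 of 12) were under 1 CPM in all 8 libraries.

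The list of genes known to respond to retinoic acid held 40 names, of which 39 were in the table and 23 were tested. With 4OHT in the Hdac2 line 7 rose and 1 fell, a share near the 36.1% called over all tested genes (18.9% higher, 17.2% lower). The median log2 fold change of the 23 was 0.20, against -0.02 for all genes tested. Those that rose included Dab2 (an endocytic adaptor, 2.12 ± 0.24), Egr1 (an immediate early transcription factor, 1.80 ± 0.24), Lamb1 and Col4a1 (basement membrane), Meis2 and Hoxb3. The smallest adjusted p among them was 0.00636 for Dab2 by edgeR. The gene listed as Stra13, whose identifier the reference names Cenpx, fell by 1.60. Without either EtOH library of the Hdac2 line 0 of the 23 rose, 6 rose without 4OHT replicate 1 and 1 without 4OHT replicate 2.

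Hox genes, which pattern the body axis, include known targets of retinoic acid, and some of them differed between the replicates of the Hdac1 line. Hoxb5 was at 38.5 and 12.7 CPM with EtOH and 10.5 and 39.5 CPM with 4OHT, low in the libraries in which Cyp26a1 was high. Hoxb2 (58.2 and 22.1, then 17.7 and 58.5 CPM) and Tgm2, a transglutaminase gene (87.6 and 32.5, then 36.9 and 96.9 CPM), ran like Hoxb5. None of the 23 genes was called in the Hdac1 line, where 0% of all tested genes were. Among the genes named there by smallest adjusted p, Meis1 had a log2 fold change of -0.85 ± 0.24 (adjusted p = 0.711 by edgeR), Bhlhe40 0.98 ± 0.39 and Btg2 0.80 ± 0.34 (0.734 each). Between the EtOH libraries, 6.42% of all tested genes were lower in the Hdac2 line and 2.91% higher. Of the 23, 3 were lower, Meis1 by -1.85 ± 0.24 and also Dab2 and Col4a1, and 0 were higher. Leaving out each library gave 0 to 5 lower. Stra8, a germ-cell gene induced by retinoic acid, had 0 counts in all 8 libraries.

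**Figure D3:**
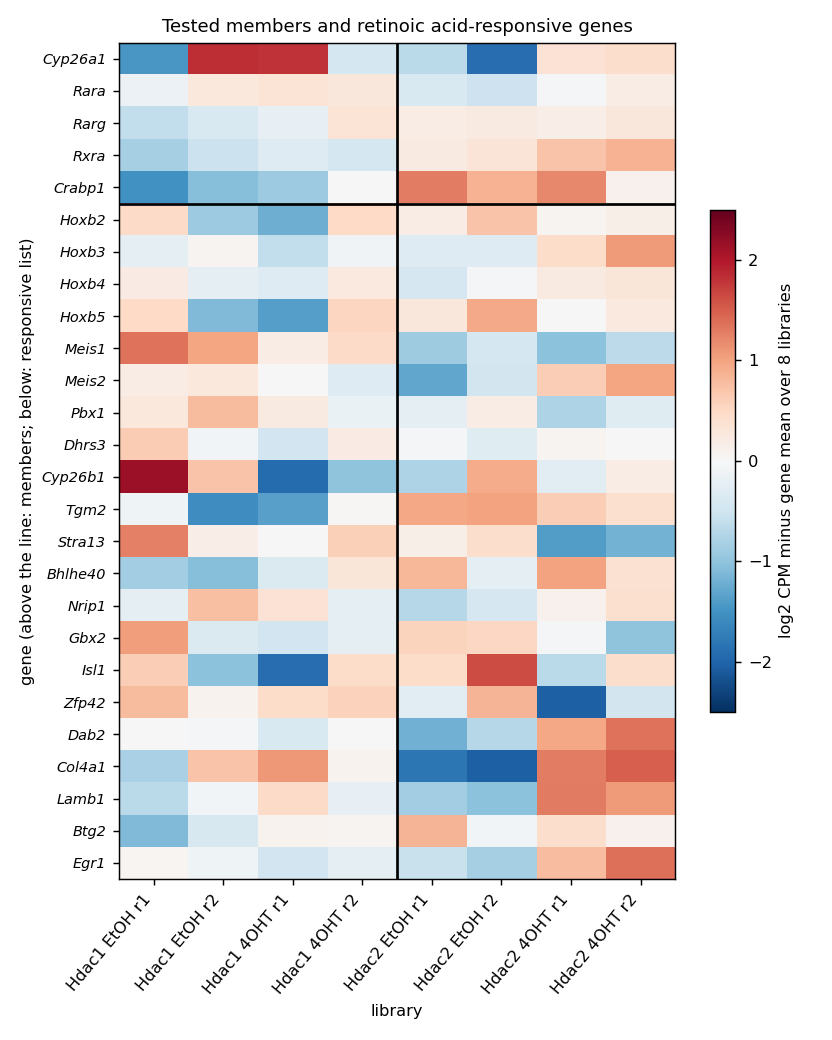
Log2 CPM minus each gene's mean over the 8 libraries (colour, clipped at 2.5 either way) for the 5 tested members (above the line) and 21 of the 23 tested responsive genes (below it, rows), by library (columns, r1 and r2 for the replicates). Cyp26a1 is high in EtOH replicate 2 and 4OHT replicate 1 of the Hdac1 line, where Hoxb2, Hoxb5 and Tgm2 are low.

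The other genes of retinoid metabolism and transport numbered 26 in the table, and 16 were tested. Of these, 4 rose and 2 fell with 4OHT in the Hdac2 line, a share near the 36.1% called over all tested genes, with a median log2 fold change of 0.10 over the 16 and -0.02 over all genes. Rdh10, which makes the retinaldehyde that ALDH1A2 oxidises, was at 26.7 and 25.4 CPM with EtOH and 42.6 and 68.7 CPM with 4OHT in that line (1.09 ± 0.25, adjusted p = 0.0171 by edgeR). Lpl, a lipoprotein lipase gene, rose by 1.86 ± 0.41 and Aldh1a1 by 3.54 ± 1.09, from 0.259 and 0.0955 CPM to 2.72 and 1.87 CPM. Adh5, an alcohol dehydrogenase gene, fell by 0.81 and Fabp5, a fatty acid-binding protein gene whose product also binds retinoic acid, by 0.87. Leaving out each of the 8 libraries gave 0 to 5 that rose.

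With 4OHT in the Hdac1 line none of the 16 was called, and 0% of all tested genes were. Cyp26b1, a relative of Cyp26a1 with the same activity, was at 21.9 and 8.05 CPM with EtOH and 1.18 and 2.33 CPM with 4OHT. Its log2 fold change was -3.06 ± 0.70, with an unadjusted p of 0.00266 and an adjusted p of 0.711 by edgeR. Dhrs9 (1.27 ± 0.56, adjusted p = 0.752), a retinol dehydrogenase gene, Dhrs4 (-0.47 ± 0.25, 0.785), a retinal reductase gene, and Aldh1a3 (0.86 ± 0.54, 0.807) completed the genes with the smallest adjusted p.

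RXR genes and the receptors that pair with RXR split in the Hdac2 line, with 2 of 8 tested rising and 2 falling with 4OHT and a median log2 fold change of -0.55, where 18.9% of all tested genes were called higher and 17.2% lower. Rxrb, encoding RXRβ, fell from 57.8 and 56.8 CPM to 34.6 and 33.6 CPM (-0.75 ± 0.18, adjusted p = 0.0197 by edgeR), opposite in sign to Rxra. Thra, a thyroid hormone receptor gene, fell from 34.1 and 35.6 CPM to 12.7 and 14.8 CPM (-1.34 ± 0.26, 0.0126). Ppard, encoding a fatty acid-sensing receptor, rose by 0.55 ± 0.15 and Rora, encoding an orphan receptor, by 1.34 ± 0.33. No receptor of this list was called with 4OHT in the Hdac1 line, where 0% of all tested genes were. Nr4a1, an immediate early receptor gene, was at 9.004 and 8.203 CPM with EtOH in that line. With 4OHT it was at 9.66 and 42.4 CPM (1.61 ± 0.56, adjusted p = 0.727 by edgeR). Nr4a1 was the 1 gene of this list that was higher with EtOH in the Hdac2 line (2.96 ± 0.58, adjusted p = 0.0306 by edgeR). Over all tested genes 2.91% were higher there. Leaving out any 1 of the 4 libraries of the Hdac2 line left 0 of the 8 called with 4OHT.

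The coregulators that RAR and RXR recruit had the largest share of calls among the lists. Of 19 tested, 12 rose and 1 fell with 4OHT in the Hdac2 line, with a median log2 fold change of 0.99, where 18.9% of all tested genes rose and 17.2% fell. Ep300, encoding the coactivator acetyltransferase p300, went from 53.6 and 61.8 CPM to 161 and 198 CPM (1.64 ± 0.29, adjusted p = 0.0108 by edgeR). Kat2b, encoding another acetyltransferase, rose by 1.60 ± 0.29, and Acin1, encoding a splicing-linked RAR cofactor, by 0.99 ± 0.15. Hdac3, the deacetylase of the NCOR complexes, fell by 0.61 (adjusted p = 0.0485). None of the 19 was called in the Hdac1 line or for the difference between the lines, where 0% and 0.0282% of all tested genes were. With EtOH 8 of the 19 were lower in the Hdac2 line and 0 higher, with a median of -1.14. Among the 8 were Ncor1 (78.9 CPM on average against 367 CPM), Crebbp, Med1 and Gps2. Over all tested genes 6.42% were lower and 2.91% higher. The EtOH libraries of the Hdac2 line enter this comparison and the 4OHT comparison on opposite sides, so the 2 results are not independent. Without EtOH replicate 1, EtOH replicate 2 or 4OHT replicate 2 of the Hdac2 line 0 rose, and 7 rose without 4OHT replicate 1. Of the 8 that were lower with EtOH, the count became 0 without either EtOH library of the Hdac2 line, 2 without either of its 4OHT libraries or EtOH replicate 2 of the Hdac1 line, and 13 without EtOH replicate 1 of the Hdac1 line.

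Exonic length moved with these counts. With 4OHT in the Hdac2 line, 36.8% of tested genes with over 6000 exonic bases were called higher and 7.15% lower, against 4.45% and 27.0% of those with up to 1500 bases. The median log2 fold change went from -0.57 through -0.35 and -0.03 to 0.54 over 4 classes of rising length. The tested coregulators had a median length of 8576 bases: 11 of 14 longer than 6000 bases rose, and 1 of 5 shorter ones. Of the 7 responsive genes that rose, 4 were longer than 6000 bases. All 5 tested members were shorter than 6000 bases. Rxra with 5462, Rara with 4365 and Rarg with 4261 were in a class with a median of -0.03. Cyp26a1 with 1983 bases was in the class with a median of -0.35, and Crabp1 with 802 in that with -0.57. Between the EtOH libraries the medians by length ran from 0.28 to -0.36, the opposite direction. The part of length in these results was not tested.

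**Figure D4:**
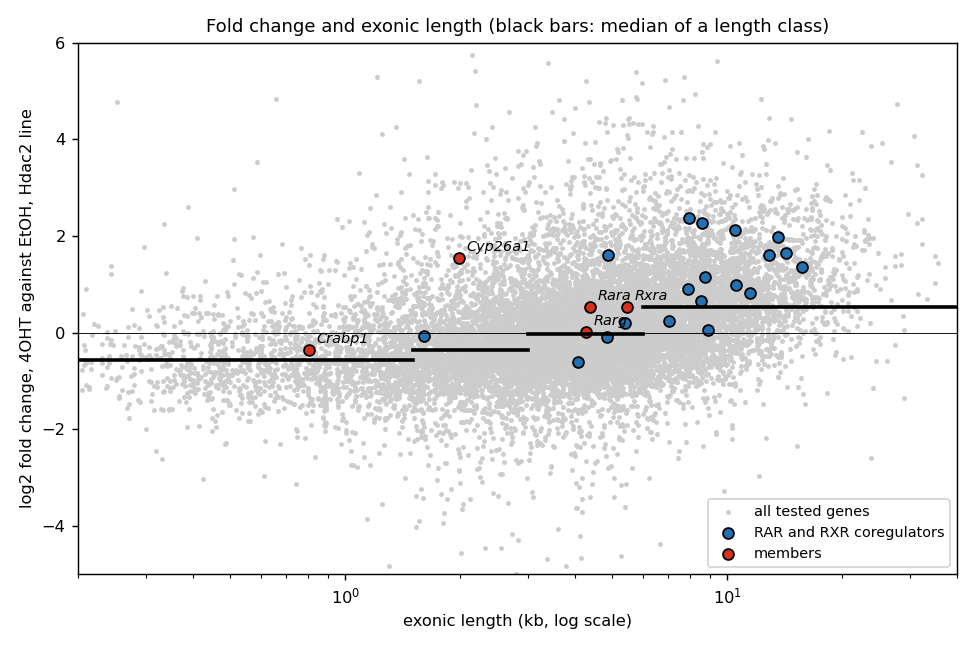
Log2 fold change with 4OHT in the Hdac2 line (vertical axis) against exonic length (kb, log scale, horizontal axis) for 14043 tested genes (grey), the RAR and RXR coregulators (blue) and the tested members (red), with black bars at the median of each length class. Most coregulators lie in the class above 6000 bases, whose median is 0.54, and Rxra and Rara lie in a class with a median of -0.03; 79 genes fall outside the axes.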

How the data were processed

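Per the labels' protocols, libraries were made with a strand-specific Agilent kit from 200 ng of total RNA. The authors deposited raw read counts per gene as whole numbers. The submitters' processing notes name the build mm10 and, without their roles, edgeR 3.8.5 in R 3.1.0, Bowtie2 2.2.1, bcl2fastq 2.17.1.14 and SAMtools 0.1.19. No source used here names the counting program or its strand setting, so reads of genes that overlap on opposite strands, as in Hox clusters, may be mixed.

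Groups came from sample titles. filterByExpr kept 14179 genes, libraries were scaled by TMM, and a quasi-likelihood model (edgeR 4.0.16, R 4.3.3) was fitted to all 8 libraries with 1 mean per group. Standard errors came from the F statistic. DESeq2 1.42.0, limma-voom (limma 3.58.1), other scalings, no filter, a replicate block, fits of the compared libraries and leaving out each library were tried. Where that left 1 library in a group, its spread was taken from the other groups. The scripts were tested on simulated data. Exonic lengths came from GENCODE M21, which held 40254 of the table's identifiers. Few-count intervals are exact at 95% and cover counting error only, since PCR reads are not independent molecules.

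The members and lists were chosen with earlier results of these data known. Named genes are the members, from each list up to 4 genes of lowest adjusted p per 4OHT comparison, and the 3 genes closest to a called member. Others were named after their values were seen. Some genes that this rule takes are not reported here.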

Additional observations from a re-analysis of the deposited data

How the results depend on the processing

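In the Hdac2 line with 4OHT, 1 member was called, and RLE scaling and limma-voom also called 1. Upper quartile scaling, no scaling and no filter on low counts called 0, DESeq2 called 2 and a fit of the Hdac2 line alone 3. Leaving out each library gave 0 to 2. Between the EtOH libraries 2 were called, a fit of the EtOH libraries alone called 0, and leaving out each library gave 0 to 3. In the Hdac1 line and for the difference between the lines 0 members were called in every alternative run. DESeq2 gave no adjusted p for Crabp1 for that difference or between the EtOH libraries. Over all genes, calls for the difference went from 4 to 1187 with no filter, 1781 with DESeq2, 11 with no scaling and 1 with limma-voom. Between the EtOH libraries they went from 1323 to 2801 with DESeq2, 2064 with no filter and 141 in the fit of the EtOH libraries alone. Low counts limit what can be said of Aldh1a2, Rarb, Crabp2 and Stra6.

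The labels do not say what a replicate number marks, and whether the numbers pair the samples was not settled. Across genes, deviations of same-numbered libraries correlated at -0.69 between the groups of the Hdac1 line and 0.26 between those of the Hdac2 line. With the replicate block 0 members were called in the Hdac2 line with 4OHT and 0 between the EtOH libraries, and the calls over all genes went from 5113 to 3624 and from 1323 to 184. Crossing the pairing in the Hdac1 line, chosen after seeing the data, called 3 and 5 members in these comparisons and 0 in the Hdac1 line, with 7847, 5428 and 20 genes in all and 4833 for the difference between the lines.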

Other observations

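The genes whose profiles over the 8 libraries were closest to Cyp26a1, looked for after its values were seen, were Mme, which encodes the membrane endopeptidase neprilysin, 5330416C01Rik and Prrg4. Their root mean square differences in centred log2 CPM were 0.35, 0.39 and 0.48, against a median of 1.35 over all tested genes. Mme was at 5.95 and 32.7 CPM with EtOH and 39.4 and 8.77 CPM with 4OHT in the Hdac1 line, and at 5.90 and 3.73 CPM and then 24.7 and 18.5 CPM in the Hdac2 line. Prrg4 was at 5.78 and 23.6 CPM, then 39.0 and 15.4 CPM, and in the Hdac2 line at 10.2 and 4.39 CPM, then 19.3 and 17.0 CPM. These values are a description of these libraries.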
